A study of Oryza sativa with 4 samples.

Results

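The magnesium branch of chlorophyll synthesis was followed in flag leaf blades of rice through 10 loci, out of 35667 rows in the deposited gene table. The loci were selected by their identifiers, though with earlier results of these data known. All 10 were found, once each, and all lay among the 23672 rows that the authors had tested. The plants were d1 (allele d1-1, a dwarf that carries a mutated RGA1, which encodes the heterotrimeric G protein's alpha subunit) and WT (TC65, a japonica rice cultivar), with 2 libraries per genotype and 4 in all. Both genotypes were 2 months old by one label and grown for 100 days by another, in the same greenhouse regime, with 16 h of light at 500 μmol per square metre and second, day temperatures averaging 30 °C and nights at 25 °C. The comparison asks how transcripts of this pathway differ when RGA1 is mutated. As a model, the d1 group rests on 1 allele, and no second allele or complemented line is part of the series.

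The table gives 1 FPKM value per genotype (fragments per kilobase of transcript and per total of mapped fragments, so that levels of different loci can be compared), made by the authors from both libraries of that genotype. Values per library, an SD and mapped depth are therefore not known, so no error can be set beside any value below, and the only test is the authors' own, by Cuffdiff. The labels state about 40000000 reads of 150 bp for each library. "Called" means a q-value under 0.05 in the authors' deposited table. The symbols came with the selection of the loci, and neither they nor the loci of the other steps were matched to an annotation here, so the pairing of locus and enzyme rests on general knowledge.

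Chlorophyll and haem share their early precursors up to protoporphyrin. Magnesium chelatase, built from the subunits CHLI, CHLD and CHLH, inserts magnesium and thereby commits the molecule to chlorophyll, and GUN4 binds the porphyrins and stimulates the chelatase. CHLM then adds a methyl group, CRD1 belongs to the cyclase that closes the additional ring, DVR reduces a vinyl side group, and the protochlorophyllide oxidoreductases PORA and PORB carry out the light-dependent reduction to chlorophyllide. CAO1 oxidises chlorophyllide a, the step towards chlorophyll b. In green leaves these enzymes replace pigment throughout the day, and because free intermediates are harmful in light, several steps are under tight control.

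Across the branch, 6 of the 10 loci were called higher in d1, 0 were called lower, and the other 4 missed the threshold. At an unadjusted p under 0.05 in Cuffdiff, 7 were higher and again 0 lower. The share of all tested genes at that unadjusted threshold was not computed, for this count or for those of the other lists below. Those called were CHLI, CHLH, GUN4, DVR, PORA and CAO1. PORA stood apart, with a 5.57-fold higher level in d1, while the other 5 called loci ranged from 1.54-fold to 1.68-fold. That range covers called loci only. The 4 loci that were not called continued below it, with CRD1 at 1.48-fold, PORB at 1.36-fold, CHLD at 1.14-fold and CHLM at 0.98-fold. The calls of CHLH and CAO1 were lost at a q under 0.01 and with a Benjamini-Hochberg adjustment recomputed over all tested genes. Under either rule 4 of the 10 loci were called higher, beside 4.11% of tested genes at a q under 0.01 and 5.09% with the recomputed adjustment. At the threshold of 0.05, among all tested genes 7.24% were called higher and 12.1% lower. All 10 loci were abundant, belonging to the top 10% of tested genes by mean level (from 60.6 FPKM upwards), and in that top 10% the share was 17.9% called higher and 15.9% called lower. The median log2 ratio of the 10 loci, d1 over WT, was 0.62, against -0.02 over all tested genes and 0.08 over the top 10% by level. The FPKM sum of the whole table was larger in d1 than in WT by 0.27 on the log2 scale. With both sums set equal, the median of the 10 loci was 0.35, and 8 instead of 9 of their log2 ratios were above 0.

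**Figure D1:**
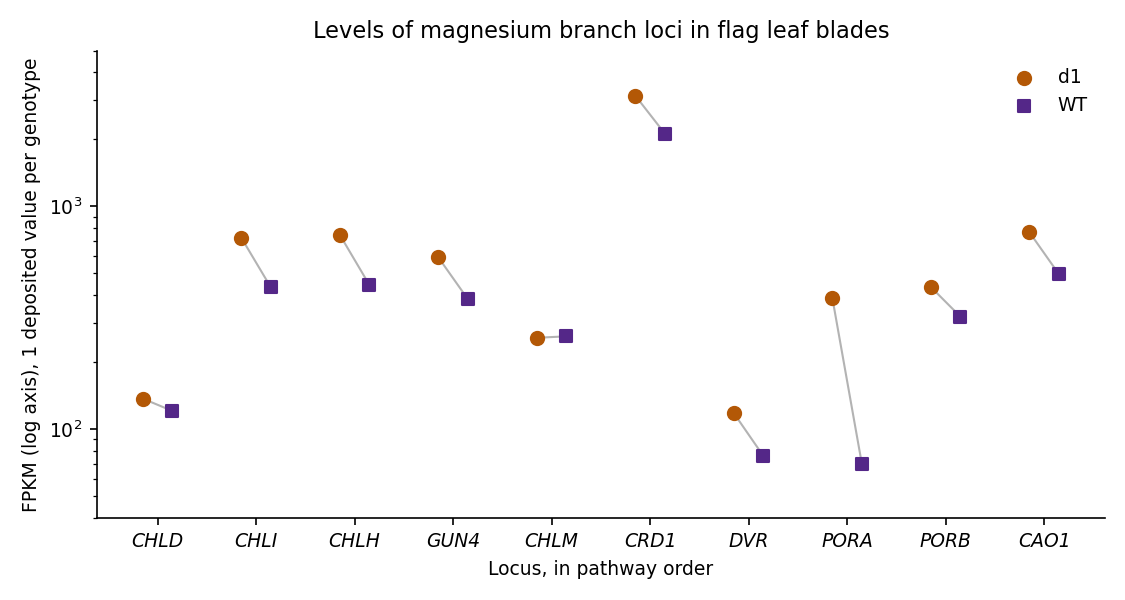
FPKM (log axis) of the 10 loci in pathway order, with 1 deposited value for d1 (circles, left) and 1 for WT (squares, right) per locus and no error available. CRD1 is highest in both genotypes, at 3141 FPKM in d1 and 2122 FPKM in WT, and PORA has the steepest difference, at 388 FPKM in d1 and 69.6 FPKM in WT.

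Within magnesium chelatase, the subunits did not all pass. CHLI (OS03G0563300), an ATPase subunit, stood at 723 FPKM in d1 and 433 FPKM in WT, a log2 ratio of 0.74 (q = 0.00205 in the authors' deposited table). CHLH (OS03G0323200), the large subunit that binds the porphyrin, stood at 745 FPKM in d1 and 444 FPKM in WT, a log2 ratio of 0.75 (q = 0.0198 in the authors' deposited table). Both were thus called higher, and their levels relative to each other were nearly the same in the genotypes, with a CHLI to CHLH ratio of 0.970 in d1 and 0.975 in WT. CHLD (OS03G0811100), the subunit that joins CHLI in the motor complex, was much scarcer and did not pass, at 137 FPKM in d1 and 121 FPKM in WT (q = 0.502 in the authors' deposited table). Its log2 ratio of 0.18 became -0.09 with equal FPKM sums, so its direction depends on the scaling. The CHLI to CHLD ratio of transcript levels was 5.27 in d1 and 3.59 in WT, and the CHLH to CHLD ratio was 5.43 in d1 and 3.68 in WT. Whether CHLD differed from its partner subunits in response to genotype was not tested, since that needs values per library.

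GUN4 (OS11G0267000), the activator of the chelatase, was called higher as well, at 591 FPKM in d1 and 383 FPKM in WT, a log2 ratio of 0.62 (q = 0.00878 in the authors' deposited table). Its level was 0.792 times that of CHLH in d1 and 0.863 times that of CHLH in WT, so it stayed close to that of its partner in both genotypes.

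The methyltransferase that follows had nearly equal levels. CHLM (OS06G0132400) stood at 257 FPKM in d1 and 261 FPKM in WT, a log2 ratio of -0.02 (-0.29 with equal FPKM sums). It did not pass (q = 0.940 in the authors' deposited table) and had the lowest log2 ratio of the 10 loci. Relative to CHLH, which works just before it, the level of CHLM was 0.345 in d1 and 0.588 in WT.

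CRD1 (OS01G0279100), the membrane-bound cyclase subunit, was the most abundant transcript of the branch, at 3141 FPKM in d1 and 2122 FPKM in WT. That level alone made up 43.0% of the summed FPKM of the 10 loci in d1 and 44.9% in WT. Although its 1.48-fold ratio was only slightly below those of GUN4 and CAO1, the difference did not pass (p = 0.0436 and q = 0.0904 in the authors' deposited table). DVR (OS03G0351200), the divinyl reductase, lay at the other end of the range and was called higher, at 118 FPKM in d1 and 75.8 FPKM in WT, a 1.56-fold ratio (q = 0.00175 in the authors' deposited table). The ratio of DVR to CRD1 levels was 0.0375 in d1 and 0.0357 in WT, so these neighbouring steps kept their proportion of transcripts although only DVR was called.

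**Figure D2:**
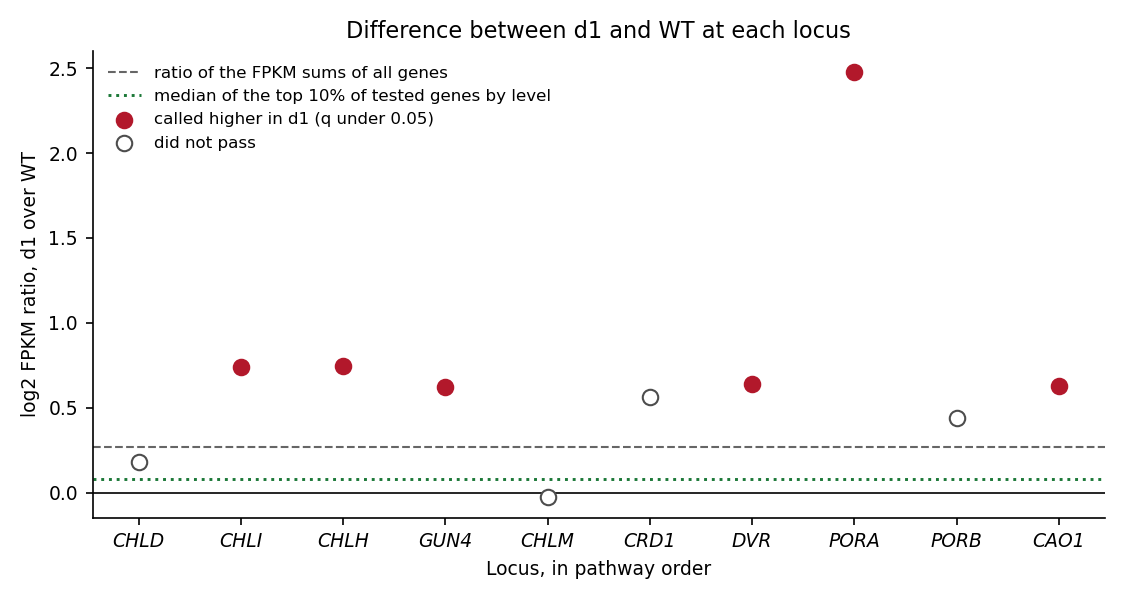
Log2 FPKM ratio, d1 over WT, at each of the 10 loci, filled where called higher at q under 0.05 and open where the test was not passed. The dashed line marks the log2 ratio of the FPKM sums (0.27) and the dotted line the median of the top 10% of tested genes by level (0.08). PORA lies at 2.48, the 5 other called loci between 0.62 and 0.75, and CHLD and CHLM below the dashed line.

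Of the 2 protochlorophyllide oxidoreductase loci, PORA was called higher and PORB was not. PORA (OS04G0678700) stood at 388 FPKM in d1 and 69.6 FPKM in WT, a log2 ratio of 2.48 (2.21 with equal FPKM sums). Its p of 5e-05 is the smallest that the authors' deposited table holds, shared by 1342 genes, and its q was 0.000186 in the same authors' deposited table. Of the 2368 genes in the top 10% by level, 11 had a larger log2 ratio than PORA, and of all tested genes 233 did. PORB (OS10G0496900) stood at 435 FPKM in d1 and 320 FPKM in WT, a 1.36-fold ratio that did not pass (q = 0.141 in the authors' deposited table).

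As background, in Arabidopsis PORA is the form that accumulates in seedlings grown in darkness and falls in light, whereas PORB remains in green tissue. In these leaves the PORA to PORB ratio of levels was 0.891 in d1 and 0.218 in WT. PORA thus provided 47.1% of the summed transcript level of both loci in d1 and 17.9% in WT. The sum itself was 822 FPKM in d1 and 389 FPKM in WT, or 2.11-fold, and PORA accounted for 73.5% of that difference. PORA was the scarcest of the 10 loci in WT and ranked 7 of 10 in d1, where DVR was the scarcest. How reads shared between such related loci were assigned is not given in the sources used here, and the difference between the responses of PORA and PORB was not tested.

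CAO1 (OS10G0567400), the chlorophyllide a oxygenase, was called higher, at 766 FPKM in d1 and 496 FPKM in WT, a 1.54-fold ratio (q = 0.0323 in the authors' deposited table). It ranked 2 of 10 in both genotypes. Another CAO locus, listed by general knowledge, stood at 0.129 FPKM in d1 and 0.0986 FPKM in WT and was not tested by the authors, so CAO1 held nearly all of the CAO signal.

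The order of levels was largely shared by the genotypes. From the highest down, CRD1, CAO1, CHLH, CHLI, GUN4 and PORB led in both. Below them, PORA, CHLM, CHLD and DVR followed in d1, and CHLM, CHLD, DVR and PORA followed in WT. Which neighbours in these orders differ beyond the spread of libraries cannot be said. The summed level of the 10 loci was 7301 FPKM in d1 and 4726 FPKM in WT, 1.54-fold, or 1.60-fold without CRD1. As a share of the FPKM sum of all rows this was 0.528% in d1 and 0.413% in WT.

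**Figure D3:**
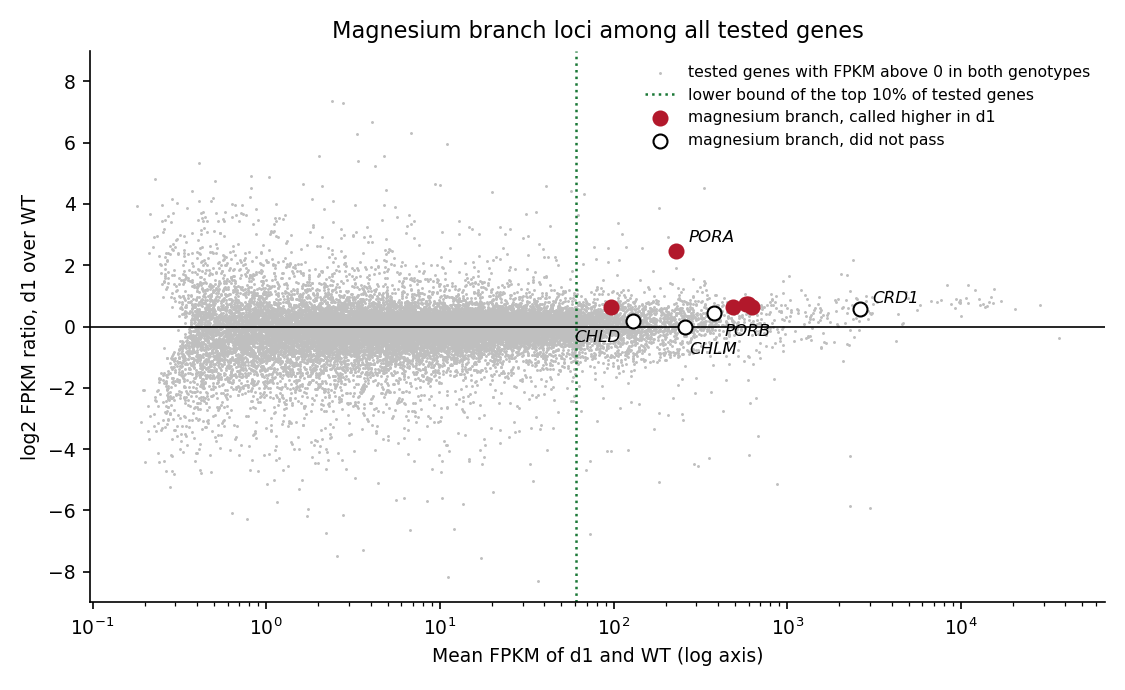
Log2 FPKM ratio, d1 over WT, against the mean FPKM of both genotypes (log axis), for tested genes above 0 in both (grey) and for the 10 magnesium branch loci, filled where called higher and open where not. The dotted line marks 60.6 FPKM, the lower bound of the top 10% of tested genes by level. All 10 loci lie to its right, and PORA alone lies far above the others, at a log2 ratio of 2.48.

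Markers of leaf and of other tissues were read beside the branch. Of 6 loci listed as leaf markers (rubisco small subunits, rubisco activase and Lhcb1 antenna proteins), 5 were tested, with log2 ratios from 0.63 to 1.35, of which 2 were called higher and 3 did not pass. Those 5 stood at 3301 to 35243 FPKM in d1 and 1757 to 21644 FPKM in WT, and the activase locus was listed at 0 with a status of too much data. Of 10 loci listed as markers of meristem, floral organs, root, secondary walls and dividing cells, none exceeded 6.25 FPKM in d1 or 8.47 FPKM in WT, with a sum of 10.9 FPKM in d1 and 21.6 FPKM in WT. In that list 3 loci were at 0 in d1 and 1 in WT, and only 4 of the 10 were tested. Of those 4, the 3 secondary wall cellulose synthase loci were called lower, of which 1 call remained with the recomputed adjustment. The remaining one, at a log2 ratio of -0.37, did not pass. Among all tested genes 7.24% were called higher and 12.1% lower. In the top 10% by level, where all 5 tested leaf markers lay, 17.9% were called higher and 15.9% lower. The part of either marker list in the result for the magnesium branch was not tested. In leaf blades sampled whole, more cells of a type and more RNA per cell cannot be told apart. The RGA1 locus itself stood at 17.3 FPKM in d1 and 20.7 FPKM in WT and did not pass (q = 0.296 in the authors' deposited table), a value over the whole locus that does not show the lesion.

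Steps on either side of the branch were examined through loci listed by identifier. Of 10 loci for the early steps from glutamyl-tRNA to protoporphyrin, all tested, 0 were called in either direction by the authors' Cuffdiff test, and 2 had a higher level at an unadjusted p under 0.05. Their log2 ratios ran from -0.05 to 0.47, with a median of 0.08 (-0.19 with equal FPKM sums), and their levels from 0.737 to 386 FPKM in d1 and from 0.703 to 373 FPKM in WT. The summed level of these early steps was 1394 FPKM in d1 and 1235 FPKM in WT. Beside the 7.24% of tested genes called higher, 0 of 10 early loci and 6 of 10 magnesium branch loci were called higher. That difference between the lists was not tested, and 10 early loci are too few for a count of 0 to be set apart from that share. The 2 early loci at an unadjusted p under 0.05 missed the call narrowly. Their log2 ratios were 0.46 (q = 0.0514 in the authors' deposited table) and 0.44 (q = 0.0657 in the authors' deposited table). Of the 10 early loci, 6 belonged to the top 10% by level, against 10 of 10 in the magnesium branch.

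The steps after and beside the branch gave a mixed picture. Of 2 loci for the phytyl tail and its attachment, geranylgeranyl reductase and chlorophyll synthase, neither passed, with the abundant one at 3028 FPKM in d1 and 2176 FPKM in WT and the other at 60.2 FPKM in d1 and 72.3 FPKM in WT. In the haem side branch, which competes for protoporphyrin, 1 ferrochelatase locus was called higher, at 187 FPKM in d1 and 118 FPKM in WT (q = 0.00304 in the authors' deposited table). The other, minor ferrochelatase locus was called lower, at 8.15 FPKM in d1 and 11.6 FPKM in WT (q = 0.0292 in the authors' deposited table), a call that was lost with the recomputed adjustment. The haem oxygenase locus stood at 292 FPKM in d1 and 224 FPKM in WT without passing.

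GLK proteins are transcription factors known to activate genes of chlorophyll synthesis and light harvesting. Of the 2 loci listed for them, 1 was called higher, at 614 FPKM in d1 and 371 FPKM in WT, a log2 ratio of 0.73 (q = 0.00175 in the authors' deposited table). That ratio lay within the range of the 5 called branch loci other than PORA, a range known only after the values were seen. The match is not particular to this locus. The ferrochelatase locus called higher (0.67), a rubisco small subunit locus (0.70) and an Lhcb1 locus (0.63) lay within it too. Of all tested genes, 1769 had a larger log2 ratio than CHLH, at the top of the range, and 2266 a larger one than GUN4, at its bottom. The second GLK locus stood at 134 FPKM in d1 and 118 FPKM in WT, a log2 ratio of 0.18, and did not pass. The part of either GLK locus in the levels of the branch was not tested. Of 5 loci of chlorophyll breakdown, 0 were called higher, also at an unadjusted p under 0.05, and 1 was called lower, at 3.54 FPKM in d1 and 7.06 FPKM in WT (q = 0.00740 in the authors' deposited table). This was the locus listed as SGR, the magnesium dechelatase that starts breakdown. Among all tested genes 7.24% were called higher and 12.1% lower, and 5 breakdown loci are too few to be set apart from those shares. The median log2 ratio of the 5 was -0.02 (-0.29 with equal FPKM sums).

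**Figure D4:**
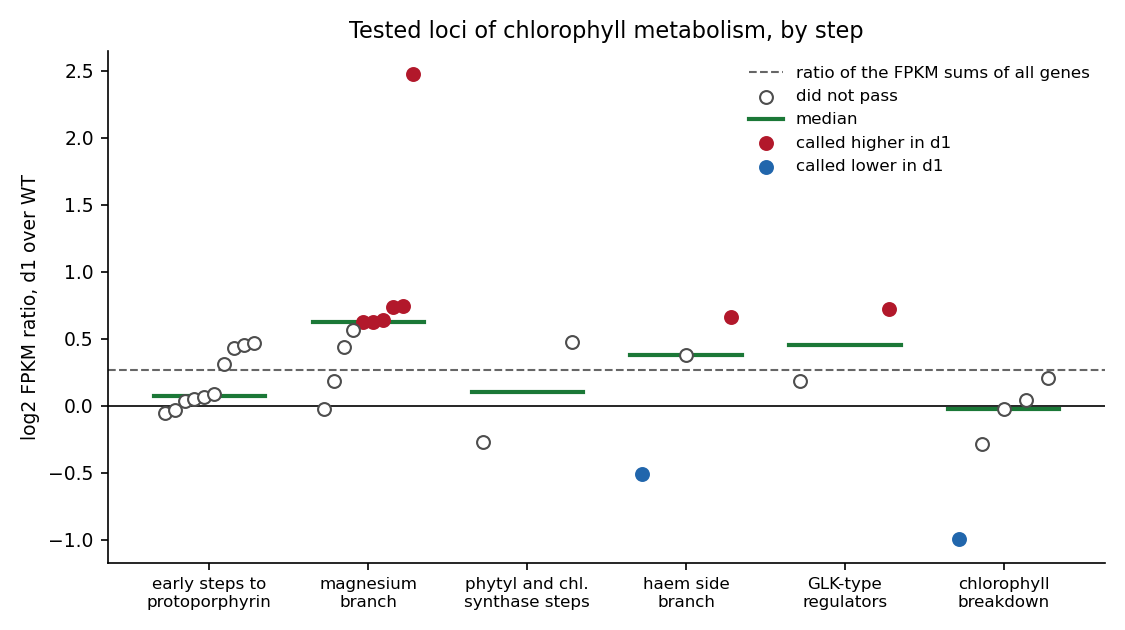
Log2 FPKM ratios, d1 over WT, of tested loci grouped by step, with filled points for loci called higher or lower, open points for loci that did not pass, and bars for medians. The early steps have a median of 0.08 with no locus called, the magnesium branch one of 0.62 with 6 of 10 called higher, and the breakdown loci one of -0.02 with 1 called lower. Of all tested genes 7.24% were called higher and 12.1% lower.

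By their identifiers, 4 of the 10 loci lie on chromosome 3, namely CHLD, CHLI, CHLH and DVR, and 2 on chromosome 10, PORB and CAO1. The others are on chromosomes 1, 4, 6 and 11. The nearest tested locus on each side of each branch locus, 20 loci in all, had a median log2 ratio of -0.05, with 1 called higher and 2 called lower. These counts were close to the shares over all tested genes, 7.24% called higher and 12.1% called lower. The one called higher lies before CHLH, at 62.7 FPKM in d1 and 45.5 FPKM in WT. Beside PORA, the loci on the 2 sides stood at 0.353 FPKM in d1 and 1.65 FPKM in WT, called lower, and at 4.48 FPKM in d1 and 4.66 FPKM in WT, not called. Neither of them was called higher in d1, the first is at a very low level, and the part of chromosome position was not tested.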

How the data were processed

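Leaf RNA was sequenced from d1 and WT plants, 2 libraries each. Per the submitters' processing notes, FastQC, Trimmomatic, TopHat2, Cufflinks and Cuffdiff were used with build IRGSP-1.0, with neither versions nor settings nor the annotation given in the sources used here. The FPKM values deposited by the authors are 1 per genotype, and the p-value and q-value per gene are the authors' too. The deposited test statistic, a signed score, was not used. How the libraries were scaled against each other is not stated, and a difference in scaling would shift all ratios alike. The log2 ratio, d1 over WT, was computed with no pseudocount (Python 3.11.15, pandas 2.3.3), since the deposited log2 column holds cells without a number. A Benjamini-Hochberg adjustment was recomputed over the 23672 tested rows, and that step was tested on simulated data against scipy 1.17.1. At each of the 10 branch loci the recomputed value was larger than the deposited q from the same Cuffdiff p-value. For PORA it was 0.000882 against 0.000186. How the deposited q was adjusted is not given, so the rate of false calls at a q under 0.05 is not known.

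The branch loci and all other lists were chosen with earlier results of these data known, and identifiers of the other lists were entered from general knowledge. All 10 branch loci are named. Other loci appear as counts or singly, some of them chosen for their call after the values were seen. Matching to the reference table gave 0 of the 10 loci, so no coordinates and no sequences are shown. The authors' p-values set the difference between genotypes against a variance estimated by Cuffdiff, and how that variance was modelled is not given. The labels call the libraries biological replicates without saying whether they came from separate plants.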

Additional observations from a re-analysis of the deposited data

How the results depend on the processing

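Under an authors' q below 0.01, and likewise under the recomputed Benjamini-Hochberg adjustment, 4 in place of 6 branch loci were called higher, and CHLI, GUN4, DVR and PORA remained in both cases. CHLH and CAO1 no longer passed, with recomputed Benjamini-Hochberg values of 0.0534 for CHLH and 0.0811 for CAO1, from the p-values of the authors' Cuffdiff test. At q below 0.01, 4.11% of tested genes were called higher, and with the recomputed adjustment 5.09%. Asking for at least 1.5-fold, or for 1 FPKM in 1 genotype or more, left all 6 calls, and no alternative called a branch locus lower or changed the counts of the early and breakdown steps. With equal FPKM sums the median log2 ratio of the 10 loci moved to 0.35 and the log2 ratio of CHLD turned to -0.087, while centring on the median or adding 1 FPKM changed no direction. Leaving out PORA, chosen after seeing the data, left the median at 0.62. No paired analysis was possible because both libraries of a genotype share 1 deposited value, which also kept any library from being left out. Mapped reads are not given, so counting error could not be set beside any value.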
